A study of Mus musculus with 10 samples.

Results

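The brown and thermogenic adipocyte genes described here are the 8 genes *Ucp1*, *Cidea*, *Cox7a1*, *Cox8b*, *Elovl3*, *Dio2*, *Ppara* and *Prdm16*, of 47937 genes counted in each library. They were chosen by name, through the Ensembl identifiers of the count files with the version number dropped. Gene expression was measured by mRNA-seq (polyA RNA) in visceral white adipose tissue (WAT) of C57BL/6 mice, in 10 libraries from 4 groups. *Mof*, listed as *Kat8*, encodes an acetyltransferase of histone H4 lysine 16, and *Mof*+/- mice carry 1 intact copy of it. On standard diet (SD), 3 *Mof*+/+ and 3 *Mof*+/- libraries came from mice 8 weeks old. On high-fat diet (HFD), 2 *Mof*+/+ and 2 *Mof*+/- libraries came from mice that the series text gives as 27 weeks old after 20 weeks of HFD, so diet and age cannot be told apart. The paper gives another length of HFD, and its methods another age for the WAT mRNA-seq. The labels call the samples of a group biological replicates and name no animal.

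Brown adipocytes burn fatty acids for heat. UCP1, in the inner mitochondrial membrane, lets protons return without making ATP, and noradrenaline switches the pathway on through the beta-3 adrenergic receptor. Beige adipocytes are cells with a similar programme that arise within white fat, and visceral depots of mice hold few of them. Among the 8 genes, *Prdm16* and *Ppara* encode transcriptional regulators, *Dio2* the deiodinase that makes active thyroid hormone within the cell, *Cidea* a lipid droplet protein and *Elovl3* an elongase of very long-chain fatty acids. *Cox7a1* and *Cox8b* encode subunits of cytochrome c oxidase, the last complex of the respiratory chain, in the forms used by heart, skeletal muscle and brown fat. Most other tissues use the *Cox7a2* and *Cox8a* forms, which makes those partners a measure of respiratory chain content without the brown or muscle form.

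Coordinates are those of GRCm38 with GENCODE M21. *Ucp1* lies on chromosome 8 from 83290352 to 83298452 (plus strand), *Cox7a1* on chromosome 7 from 30184144 to 30186078 (plus strand) and *Cox8b* on chromosome 7 from 140898945 to 140900446 (minus strand). *Prdm16* lies on chromosome 4 from 154316125 to 154636873 (minus strand), *Dio2* on chromosome 12 from 90724552 to 90738438 (minus strand), *Ppara* on chromosome 15 from 85734983 to 85802819 (plus strand) and *Elovl3* on chromosome 19 from 46131897 to 46135694 (plus strand). All 8 genes are annotated as protein coding, and the counts cover their exons.

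The 3 promoters shown are those of the genes with the largest fitted difference between genotypes on HFD with all libraries, the uncoupling protein and the pair of cytochrome c oxidase subunits. Without HFD *Mof*+/- replicate 1, *Elovl3* (log2 fold change 3.62) and *Cidea* (3.48) came before *Ucp1* (3.14) and *Cox7a1* (2.61). The sequences are the 250 bases before the RefSeq start (GRCm38.p6), and 6 of the 8 genes were matched in that table. Both strands were searched for AGGTCA (a nuclear receptor half-site), TGACG (the core bound by CREB and ATF factors) and CANNTG (the E-box bound by myogenic and other helix-loop-helix factors, where N is any base). Capitals mark the matches, and positions count back from the start.
*Ucp1*, chr8:83290098-83290347, plus strand: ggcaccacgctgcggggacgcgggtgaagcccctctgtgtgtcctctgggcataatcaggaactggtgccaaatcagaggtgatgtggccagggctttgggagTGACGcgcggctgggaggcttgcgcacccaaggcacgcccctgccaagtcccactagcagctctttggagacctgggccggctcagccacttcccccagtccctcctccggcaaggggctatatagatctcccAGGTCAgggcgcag
*Cox7a1*, chr7:30183921-30184170, plus strand: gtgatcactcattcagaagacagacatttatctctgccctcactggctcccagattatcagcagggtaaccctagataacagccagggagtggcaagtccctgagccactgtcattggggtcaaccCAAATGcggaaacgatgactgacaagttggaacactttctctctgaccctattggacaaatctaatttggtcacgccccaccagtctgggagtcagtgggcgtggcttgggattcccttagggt
*Cox8b*, chr7:140900447-140900696, minus strand: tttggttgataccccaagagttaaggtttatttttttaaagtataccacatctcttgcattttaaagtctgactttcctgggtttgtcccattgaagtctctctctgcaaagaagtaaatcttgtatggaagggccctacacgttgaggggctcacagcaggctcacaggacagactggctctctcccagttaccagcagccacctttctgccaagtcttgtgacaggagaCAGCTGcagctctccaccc

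The *Ucp1* window held AGGTCA at -14 and TGACG at -147 and no CANNTG. The windows of *Cox7a1* and *Cox8b* each held a single CANNTG, at -124 and -19, and neither of the other motifs. Among all 32851 windows of this length, 14.0% held AGGTCA, 17.8% TGACG and 66.2% CANNTG, so a match is a description and not a site.

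Total counts on genes ranged from 6724618 to 17171947 in the SD libraries and were 15483115 and 16014992 in the HFD *Mof*+/+ libraries. They were 1044355 and 5531786 in HFD *Mof*+/- replicates 1 and 2 as labelled. Levels are in CPM, each count being divided by the total on genes in its library, and a floor of 3 counts corresponds to 2.87 CPM in the library labelled HFD *Mof*+/- replicate 1 and to at most 0.542 CPM elsewhere. Intervals are exact (Clopper-Pearson) 95% intervals and, like the floors, cover counting error only. *Kat8* was at 20.4 to 21.5 CPM in SD *Mof*+/+, 11.5 to 18.8 CPM in SD *Mof*+/- and 18.2 and 19.2 CPM in HFD *Mof*+/+. For HFD *Mof*+/- it was 20.1 CPM in the library labelled replicate 1 and 10.5 CPM in replicate 2. The 20.1 CPM of replicate 1 rested on 21 counts (12.4 to 30.7 CPM), a level that does not set it apart from *Mof*+/+. *Xist* was at 46.1 to 139 CPM, with 4 Y-linked genes at 0, in all SD *Mof*+/- libraries, and the other 7 libraries had the opposite pattern. Genotype on SD, diet in *Mof*+/- and the interaction of genotype and diet therefore cannot be told apart from sex. The paper's methods name male mice for the WAT mRNA-seq. The file headings exchange the third SD libraries between the genotypes, and groups follow the labels. As labelled, *Kat8* was at 20.4 CPM in the third SD *Mof*+/+ library and at 11.5 CPM in the third SD *Mof*+/- library.

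The library labelled HFD *Mof*+/- replicate 1 stood apart before any gene of the brown programme was considered. A list of 20 skeletal muscle genes summed to 81750 CPM, 8.18% of its counts, against 1951 CPM in replicate 2 and 65.1 to 141 CPM in the other 8 libraries. The fitted changes that rest on it are therefore given with and without it. Its transcripts of the mitochondrial genome made up 24.8% of counts, against 1.67% to 8.64% in the other libraries. White adipocyte markers were present, with a sum of 14680 CPM against 22580 to 66120 CPM in the other 9 libraries.

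Across the tissue the brown programme was scarce outside the HFD *Mof*+/- libraries. The 8 genes together summed to 23.1 to 95.4 CPM in the 8 other libraries, less than 0.01% of counts, and to 1148 and 369 CPM in HFD *Mof*+/- replicates 1 and 2 as labelled. In means over the 8 libraries outside HFD *Mof*+/-, per kilobase of exon, *Cox8b* (52.4 CPM per kb), *Cox7a1* (12.9) and *Cidea* (6.10) were the highest, with 31.7 CPM per kb of *Cidea* in SD *Mof*+/+ replicate 3. *Prdm16* (0.769), *Ppara* (0.515), *Dio2* (0.348), *Ucp1* (0.182) and *Elovl3* (0.0237) were below 1 CPM per kb. *Ucp1* was at most 0.553 CPM per kb in those 8 libraries, and at 49.8 and 2.21 CPM per kb in HFD *Mof*+/- replicates 1 and 2. On the same scale and over the same 8 libraries *Cidec*, the white adipocyte relative of *Cidea*, was at 1629 CPM per kb, *Cox8a* at 777 and *Cox7a2* at 313. In these bulk samples, fewer cells of a type and less RNA per cell cannot be told apart.

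**Figure D1:**
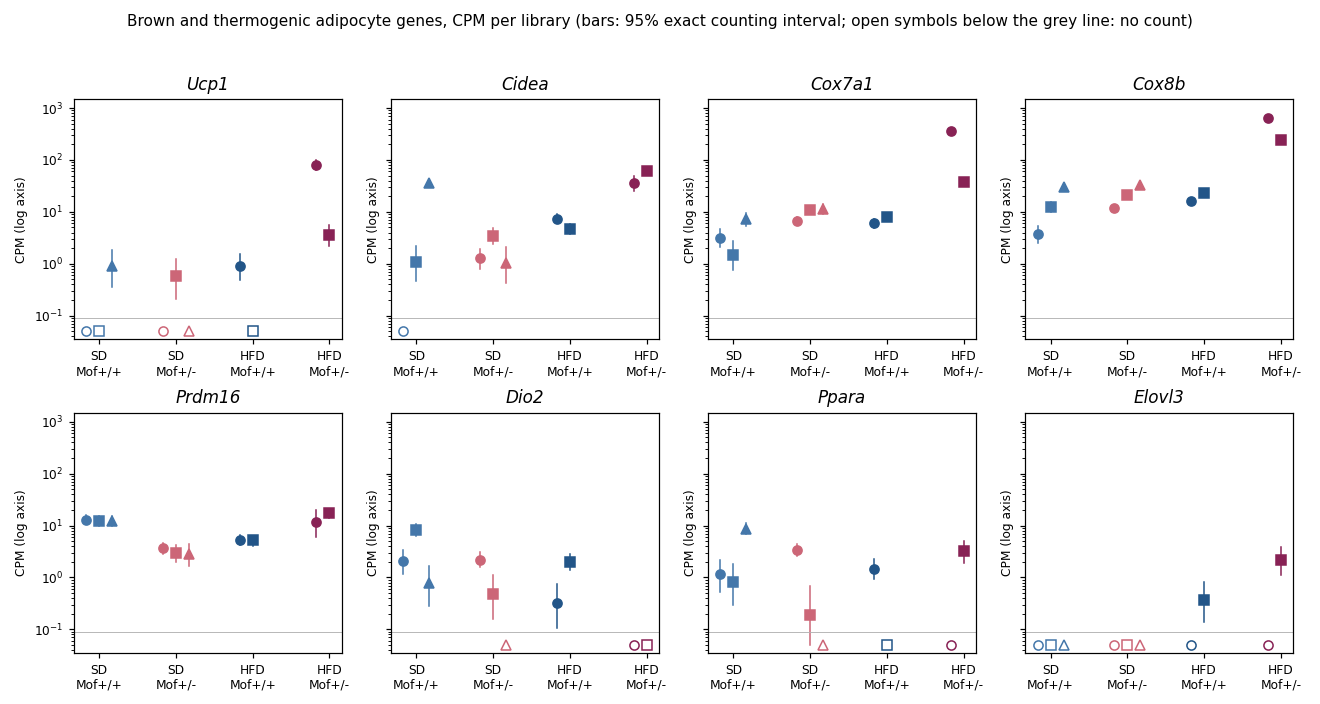
CPM of the 8 genes (log axis) in each library of the 4 groups, with exact 95% counting intervals as bars, circles, squares and triangles for replicates 1, 2 and 3, and open symbols below the grey line for libraries with no count. *Cox7a1*, *Cox8b* and *Ucp1* were highest in HFD *Mof*+/- replicate 1 (circle), while *Cidea* and *Prdm16* were higher in replicate 2 (square).

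*Ucp1*, the defining gene of brown and beige adipocytes, had no count in 5 of the 10 libraries. It was at 0, 0 and 0.903 CPM in SD *Mof*+/+, 0, 0.576 and 0 CPM in SD *Mof*+/-, and 0.904 and 0 CPM in HFD *Mof*+/+. It reached 81.4 CPM (65.0 to 100.6) and 3.62 CPM (2.21 to 5.58) in HFD *Mof*+/- replicates 1 and 2 as labelled. Both HFD *Mof*+/- libraries lay above the other 8. Replicate 2 rested on 20 counts, and its interval lay above those of the other 8 libraries, which ended at 1.86 CPM or lower.

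*Cidea*, which promotes the fusion and remodelling of lipid droplets, was at 0, 1.10 and 35.4 CPM in SD *Mof*+/+ and at 1.28, 3.45 and 1.04 CPM in SD *Mof*+/-. It was at 7.43 and 4.75 CPM in HFD *Mof*+/+. The libraries labelled HFD *Mof*+/- had 35.4 and 60.4 CPM. A single SD *Mof*+/+ library, replicate 3, was at the level of the lower HFD *Mof*+/- library, so that the SD *Mof*+/+ mean of 12.2 ± 20.1 CPM (SD, n = 3) described none of its libraries.

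*Cox7a1* was at 3.19, 1.51 and 7.23 CPM in SD *Mof*+/+, 6.70, 11.03 and 11.6 CPM in SD *Mof*+/-, and 6.07 and 7.99 CPM in HFD *Mof*+/+. It was at 369.6 and 38.1 CPM in HFD *Mof*+/- replicates 1 and 2 as labelled. *Cox8b* was at 3.70, 12.6 and 30.1 CPM in SD *Mof*+/+, 11.8, 21.01 and 33.0 CPM in SD *Mof*+/-, and 16.2 and 22.6 CPM in HFD *Mof*+/+. It was at 650.2 and 244 CPM in HFD *Mof*+/- replicates 1 and 2. Both genes were detected above the floor in every library, and for both the HFD *Mof*+/- pair lay above all others.

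*Prdm16*, a zinc finger regulator that promotes brown over muscle and white identity, varied little within the SD *Mof*+/+, SD *Mof*+/- and HFD *Mof*+/+ groups. It was at 13.03, 12.2 and 12.3 CPM in SD *Mof*+/+, 3.67, 2.97 and 2.83 CPM in SD *Mof*+/-, and 5.23 and 5.18 CPM in HFD *Mof*+/+. The libraries labelled HFD *Mof*+/- had 11.5 CPM (12 counts, 5.94 to 20.1) and 17.2 CPM (95 counts, 13.9 to 20.99). On SD all *Mof*+/- libraries lay below all *Mof*+/+ libraries, and on HFD the order was the opposite.

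*Dio2* was at 2.04, 8.36 and 0.774 CPM in SD *Mof*+/+, 2.21, 0.480 and 0 CPM in SD *Mof*+/-, and 0.323 and 2.00 CPM in HFD *Mof*+/+. SD *Mof*+/+ replicate 2, with the highest *Dio2*, also held 1149 CPM of 7 oligodendrocyte and glia markers, against 13.4 to 163 CPM in the other 9 libraries, and was the single library with counts of *Zic1* (193). The part of such RNA in its *Dio2* level was not tested. Neither HFD *Mof*+/- library had a count, where the floor of 3 counts is 2.87 and 0.542 CPM. *Ppara*, a nuclear receptor of fatty acid oxidation genes, was at 1.15, 0.822 and 8.78 CPM in SD *Mof*+/+, 3.38, 0.192 and 0 CPM in SD *Mof*+/-, 1.49 and 0 CPM in HFD *Mof*+/+, and 0 and 3.25 CPM in HFD *Mof*+/-. *Elovl3* had 18 counts in all, 6 in HFD *Mof*+/+ replicate 2 (0.375 CPM) and 12 in HFD *Mof*+/- replicate 2 (2.17 CPM). For these 3 genes the groups overlapped or the levels were near the floor, and no order of the groups could be read.

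Genotypes on HFD were compared to ask how the programme differed after the fat challenge. *Cox8b*, *Cox7a1*, *Cidea*, *Ucp1* and *Prdm16* were higher in both HFD *Mof*+/- libraries than in both HFD *Mof*+/+ libraries, and none passed the adjusted threshold of 0.05 in edgeR's quasi-likelihood test. Of the 8 genes, 6 passed the filter on low counts, and *Dio2* and *Elovl3* did not. The log2 fold change was 4.92 (SE 0.73) for *Cox8b*, 5.28 (SE 1.30) for *Cox7a1* and 3.28 (SE 0.60) for *Cidea*, each with an adjusted p of 0.278. It was 6.95 (SE 2.46, adjusted p = 0.356) for *Ucp1*, 1.78 (SE 1.01, adjusted p = 0.641) for *Prdm16* and 1.68 (SE 1.93, adjusted p = 0.842) for *Ppara*.

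Of the 14120 genes tested on HFD, 0% were called after adjustment, with 12.3% at an unadjusted p under 0.05, while DESeq2 called 209 genes. *Ucp1* passed the filter only through the HFD *Mof*+/- libraries, which fixed its direction, and *Ppara* passed through 1 library of each group. Of the 4 genes that passed on the *Mof*+/+ libraries as well, 3 were under the unadjusted threshold (*Cox8b*, *Cidea* and *Cox7a1*), or all 4 without HFD *Mof*+/- replicate 1, where 39.5% of all genes were. The groups did not overlap for these 4, while 54.4% of all genes tested had groups that did not overlap with 2 libraries each.

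Without replicate 1 of HFD *Mof*+/-, the lone remaining library was assumed to vary like the other group. The differences of *Ucp1*, *Cox7a1* and *Cox8b* were smaller there and those of *Cidea* and *Prdm16* were not. Replicate 2 also held muscle RNA, and the 18 muscle genes tested in that fit had a median log2 fold change of 5.82. The log2 fold change was then 3.82 (SE 0.25, adjusted p = 2.62e-08) for *Cox8b*, 3.48 (SE 0.29, adjusted p = 8.34e-07) for *Cidea*, 2.61 (SE 0.30, adjusted p = 1.93e-05) for *Cox7a1* and 1.89 (SE 0.40, adjusted p = 0.00239) for *Prdm16*. *Ucp1* was at 3.14 (SE 1.55, adjusted p = 0.141) and *Ppara* at 2.29 (adjusted p = 0.265). In that fit 4326 of 15932 genes (27.2%) were called, so a call there is not particular to these genes. Without replicate 2 the log2 fold changes of *Cox8b*, *Cox7a1*, *Ucp1*, *Cidea* and *Prdm16* were 5.46, 6.11, 7.87, 2.93 and 1.53. *Ucp1* was at 11.67 without HFD *Mof*+/+ replicate 1.

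**Figure D2:**
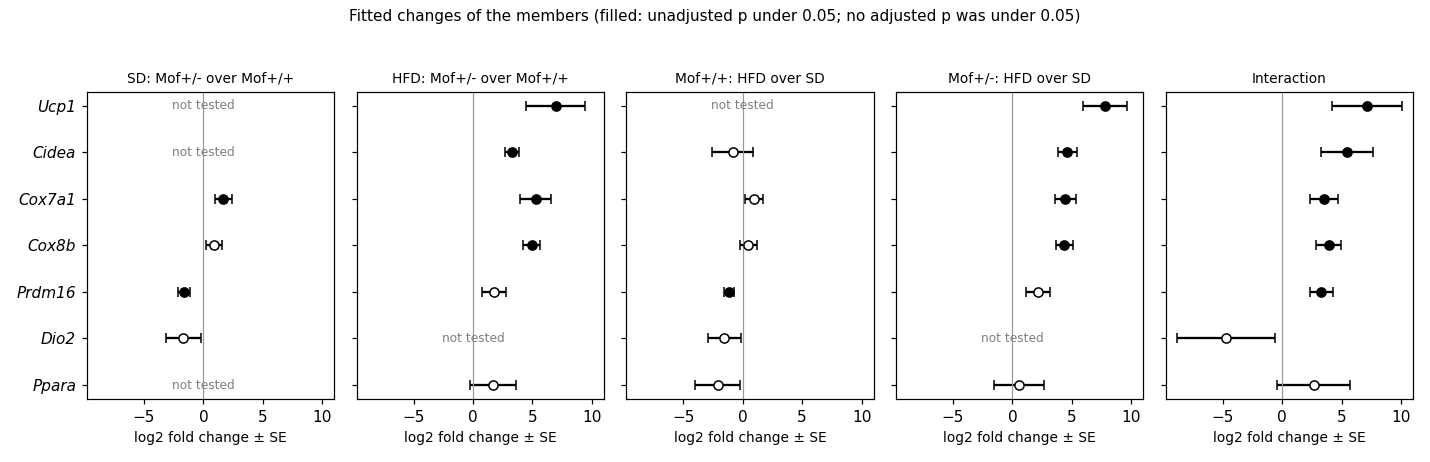
Log2 fold changes with standard errors from edgeR for 7 of the genes (rows) in the 5 comparisons (panels), with filled points for an unadjusted p under 0.05 and "not tested" where a gene did not pass the filter. Points lie far to the right for *Ucp1*, *Cidea*, *Cox7a1* and *Cox8b* in each panel that holds the HFD *Mof*+/- libraries, and no adjusted p was under 0.05.

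The HFD *Mof*+/- libraries differed from each other in which of these genes they held. Replicate 1 exceeded replicate 2 in CPM by 22.5-fold for *Ucp1* (13.7 to 38.7), 9.69-fold for *Cox7a1* (8.17 to 11.5) and 2.66-fold for *Cox8b* (2.43 to 2.92). The ratio was 0.587 for *Cidea* (0.406 to 0.826) and 0.669 for *Prdm16* (0.334 to 1.22). The muscle list was 41.9-fold higher in replicate 1 (41.1 to 42.8), and the 18 of its 20 genes with more than 3 counts in both libraries ranged from 9.89-fold to 252-fold, with a median of 44.7. The adipocyte gene *Adipoq* and the partner subunits *Cox7a2* and *Cox8a* were lower in replicate 1, with ratios of 0.235, 0.462 and 0.401.

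**Figure D3:**
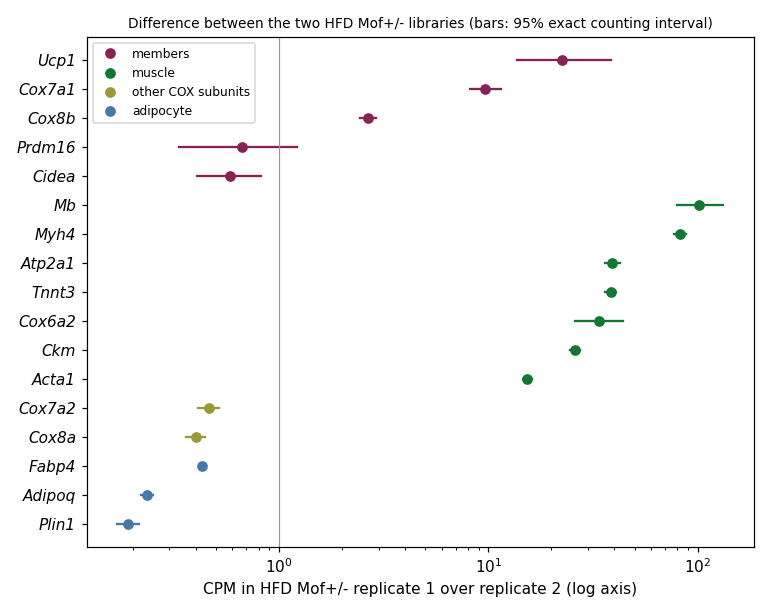
Ratio of CPM in HFD *Mof*+/- replicate 1 over replicate 2 (log axis) with exact 95% counting intervals for 5 of the genes, muscle genes, ubiquitous cytochrome c oxidase subunits and adipocyte genes. *Ucp1* (22.5) and *Cox7a1* (9.69) lie toward the muscle genes, *Cox8b* (2.66) lies between, and *Cidea* (0.587) and *Prdm16* (0.669) lie below 1.

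Set against muscle RNA, the genes divided further. Per 1000 counts of the muscle list, replicates 1 and 2 held 50.7 and 54.3 counts of *Atp2a1*, the calcium pump of fast muscle, which is not in the list. Other muscle genes moved both ways per 1000 counts of the list, from 15.1 to 6.21 for *Mb*, 177 to 90.5 for *Myh4* and 66.3 to 181 for *Acta1*, which are named after their values were seen. For *Cox8b* the same quantity was 7.95 and 125, for *Cox7a1* 4.52 and 19.6, for *Ucp1* 0.996 and 1.85, and for *Cidea* 0.433 and 30.9. At the ratio of replicate 1, the 10791 muscle counts of replicate 2 would carry 85.8 counts of *Cox8b*, 48.8 of *Cox7a1*, 10.7 of *Ucp1* and 4.68 of *Cidea*. Those are 6.36%, 23.1%, 53.7% and 1.40% of the 1350, 211, 20 and 334 counts found there. Less that amount, replicate 2 would keep 228.5 CPM of *Cox8b*, 29.3 CPM of *Cox7a1*, 1.67 CPM of *Ucp1* and 59.5 CPM of *Cidea*. The calculation holds the ratio of each gene to muscle RNA equal in both libraries. *Mb*, *Myh4* and *Acta1* departed further from equal ratios than *Ucp1* did. The part of muscle RNA in the levels of these genes was not tested.

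The cytochrome c oxidase forms were also compared with their ubiquitous partners within each library, which cancels the library total. *Cox8b* per kilobase amounted to 1.96%, 4.51% and 11.7% of *Cox8a* in SD *Mof*+/+, 4.10%, 6.73% and 8.01% in SD *Mof*+/-, and 6.25% and 9.41% in HFD *Mof*+/+. In HFD *Mof*+/- replicates 1 and 2 it was 306% and 46.1%. *Cox7a1* amounted to 3.01%, 1.29% and 6.44% of *Cox7a2* in SD *Mof*+/+, 4.19%, 5.57% and 3.30% in SD *Mof*+/-, 4.41% and 5.04% in HFD *Mof*+/+, and 208% and 9.94% in HFD *Mof*+/-. Thus in replicate 1 the brown and muscle forms outnumbered their partners, and in replicate 2 they did not.

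On SD the log2 ratio differed between genotypes by 0.37 for *Cox8b* over *Cox8a* (exact permutation test, two-sided, p = 0.7, adjusted over both pairs 0.7) and by 0.54 for *Cox7a1* over *Cox7a2* (exact permutation p = 0.6, adjusted 0.7). The groups overlapped for both, and 3 libraries against 3 cannot give a p below 0.1. On HFD the differences were 3.95 and 3.27, with exact permutation p = 0.333 for each, the smallest that 2 against 2 allow.

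**Figure D4:**
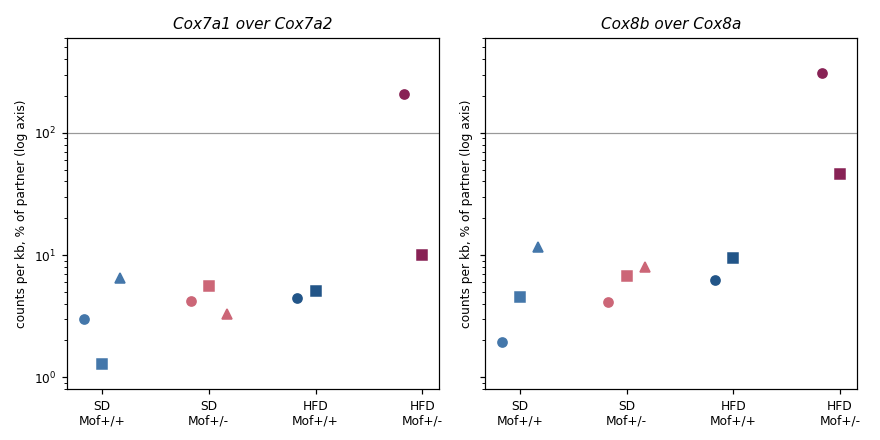
Counts per kilobase of *Cox7a1* as a percentage of *Cox7a2* (left) and of *Cox8b* as a percentage of *Cox8a* (right), on a log axis, in each library of the 4 groups, with the line at 100%. The 8 libraries outside HFD *Mof*+/- lie between 1.29% and 11.7%, HFD *Mof*+/- replicate 1 (circle) lies above the line at 208% and 306%, and replicate 2 (square) at 9.94% and 46.1%.

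Genotypes on SD were compared to ask what differed before the fat challenge. *Prdm16* was lower and *Cox7a1* higher in *Mof*+/- at an unadjusted p under 0.05, and neither passed the adjusted threshold. For *Prdm16*, with 12.5 ± 0.465 CPM in *Mof*+/+ and 3.16 ± 0.450 CPM in *Mof*+/- (SD, n = 3 each), the log2 fold change was -1.62. Its SE was 0.53 and its adjusted p 0.102, while DESeq2 gave an adjusted p of 0.0179. With the grouping of the file headings the log2 fold change was -0.54 (adjusted p = 1). *Cox7a1* was 1.67 higher on the log2 scale (SE 0.71, adjusted p = 0.177), *Cox8b* 0.90 higher (SE 0.70, adjusted p = 0.456) and *Dio2* at -1.69 (SE 1.49, adjusted p = 0.518). *Cox8b* was at 1.79 without SD *Mof*+/+ replicate 3, and at 0.43 and 0.41 without SD *Mof*+/+ replicate 1 and SD *Mof*+/- replicate 3. *Dio2* was at -0.29 without SD *Mof*+/+ replicate 2 and -3.50 without SD *Mof*+/- replicate 1. The 4 other genes did not pass the filter.

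Among the 13864 genes tested on SD, 5.24% were called after adjustment, against 0 of these 4, and 25.7% had an unadjusted p under 0.05, against 2 of 4. The groups did not overlap for *Prdm16* alone among the 4, and for 40.3% of all genes tested. The median log2 fold change of the 4 was -0.36, against -0.07 over all genes.

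Transcript length moved with the SD comparison. Genes with exons under 1 kb had a median log2 fold change of 1.30 and those over 5 kb of -0.43, with a rank correlation of -0.43 across 13839 genes, which are not independent replicates. *Cox7a1* (535 bases of exon) and *Cox8b* (360 bases) are short, and *Prdm16* (9321 bases) is long. With a correction for length, *Cox7a1* was at 0.26 (adjusted p = 0.861), *Cox8b* turned to -0.88, and *Prdm16* was at -1.22 (adjusted p = 0.231). The 8 endothelial markers summed to 1151 to 2931 CPM in SD *Mof*+/+ and 199 to 313 CPM in SD *Mof*+/-, and 6 of the 8 fell after adjustment. The 6 mesothelial markers summed to 23.8 to 59.1 CPM in SD *Mof*+/+ and 170 to 349 CPM in SD *Mof*+/-. The 12 white adipocyte markers summed to 29710 to 36910 CPM and 43750 to 66120 CPM, and 3 of them rose. The part of these 3 lists in the differences on SD was not tested.

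Diets within *Mof*+/+ were compared to ask how HFD moved the programme with the gene intact. *Prdm16* was lower on HFD, from 12.5 ± 0.465 CPM (SD, n = 3) to 5.21 ± 0.0345 CPM (SD, n = 2), without overlap. The log2 fold change was -1.14 (SE 0.41, adjusted p = 0.125 in edgeR). The 8 endothelial markers moved with it, from sums of 1151 to 2931 CPM on SD to 542 and 425 CPM on HFD, and their part in the *Prdm16* difference was not tested. The groups of the other 5 genes tested overlapped, with log2 fold changes of -2.12 for *Ppara*, -1.56 for *Dio2*, -0.85 for *Cidea*, 0.46 for *Cox8b* and 0.96 for *Cox7a1*, and adjusted p from 0.460 to 0.794. The value of *Cidea* rested on SD *Mof*+/+ replicate 3 and was 3.56 without it, and that of *Cox8b* was -0.00 without SD *Mof*+/+ replicate 1. *Ppara* was at -0.31 without SD *Mof*+/+ replicate 3 and -8.05 without HFD *Mof*+/+ replicate 1. *Dio2* was at -0.15 without SD *Mof*+/+ replicate 2, -0.76 without HFD *Mof*+/+ replicate 1 and -3.36 without HFD *Mof*+/+ replicate 2. *Cox7a1* was at 0.57 without SD *Mof*+/+ replicate 2 and 1.69 without SD *Mof*+/+ replicate 3.

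Of the 14939 genes tested for diet in *Mof*+/+, 9.75% were called, 28.4% were under an unadjusted p of 0.05 and 49.1% had groups without overlap. Of the 6 genes, 0 were called, 1 was under the unadjusted threshold and 1 did not overlap. Their median log2 fold change was -0.99, against -0.04 over all genes.

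Diets within *Mof*+/- gave the largest fitted changes of *Ucp1* and *Cidea* among the pairs of groups, and none passed the adjusted threshold. The log2 fold change was 7.79 for *Ucp1* (SE 1.86, adjusted p = 0.282), 4.62 for *Cidea* (SE 0.80, adjusted p = 0.143), 4.45 for *Cox7a1* (SE 0.90, adjusted p = 0.207) and 4.38 for *Cox8b* (SE 0.68, adjusted p = 0.143). *Prdm16* was at 2.17 (SE 1.02, adjusted p = 0.604) and *Ppara* at 0.55 (SE 2.11, adjusted p = 0.963). *Ucp1*, *Cidea* and *Ppara* passed the filter here only with the HFD *Mof*+/- libraries. *Ucp1* had no SD library at the filter's cutoff and *Cidea* 1. No count of members for this comparison includes *Ucp1*, *Cidea* or *Ppara*. Without replicate 1 of HFD *Mof*+/- the values were 4.06 for *Ucp1* (adjusted p = 0.713), 4.85 for *Cidea* (adjusted p = 0.0931), 1.84 for *Cox7a1* (adjusted p = 0.361), 3.34 for *Cox8b* (adjusted p = 0.121), 2.32 for *Prdm16* (adjusted p = 0.401) and 1.33 for *Ppara* (adjusted p = 0.875). *Ucp1* was at 11.49 without SD *Mof*+/- replicate 2. *Cidea* and *Prdm16* were no smaller without replicate 1, and *Ucp1*, *Cox7a1* and *Cox8b* were. Leaving it out did not remove muscle RNA, as the 19 muscle genes tested in that fit had a median log2 fold change of 5.64.

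Of the 13610 genes tested for diet in *Mof*+/-, 0% were called by edgeR after adjustment, 8.57% were under an unadjusted p of 0.05 and 27.6% had groups without overlap, while DESeq2 called 402. Of the 3 genes that passed the filter on the SD libraries as well, 2 were under the unadjusted threshold (*Cox8b* and *Cox7a1*) and *Prdm16* was not, or all 3 without HFD *Mof*+/- replicate 1, where 9.08% of all genes were. The groups did not overlap for these 3.

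The test of whether genotype acted differently on HFD and SD used all 10 libraries, and sex moves with genotype in its SD part. *Prdm16* had an interaction of 3.30 (log2, SE 0.96, adjusted p = 0.223) and *Cox8b* of 3.91 (SE 1.06, adjusted p = 0.195). *Cox7a1*, *Cidea* and *Ucp1* had 3.49, 5.45 and 7.12, with adjusted p of 0.293, 0.353 and 0.363. *Ppara* was at 2.64 and *Dio2* at -4.73, with adjusted p of 0.770 and 0.678. None of the 7 genes tested passed after adjustment, where 0.0881% of 15897 genes did, and 12.4% of all genes had an unadjusted p under 0.05. *Ucp1* passed the filter only through HFD *Mof*+/-, and of the 6 others 4 were under that p. With the grouping of the file headings the interaction of *Prdm16* was 2.23 (adjusted p = 0.619).

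Without HFD *Mof*+/- replicate 1 the interaction was 3.50 for *Prdm16* (adjusted p = 0.120), 2.92 for *Cox8b* (adjusted p = 0.278), 5.73 for *Cidea* (adjusted p = 0.340), 3.41 for *Ucp1* (adjusted p = 0.824), 0.93 for *Cox7a1* (adjusted p = 0.774), 3.45 for *Ppara* and -4.90 for *Dio2* (adjusted p = 0.721 for both). *Dio2* was at -2.83 without SD *Mof*+/- replicate 1, -2.80 without HFD *Mof*+/+ replicate 2 and -1.82 in DESeq2. *Ppara* was at 0.84 without SD *Mof*+/+ replicate 3, 6.03 without SD *Mof*+/- replicate 1, 1.64 and 8.26 without HFD *Mof*+/+ replicates 2 and 1, and -4.68 without HFD *Mof*+/- replicate 2. Without SD *Mof*+/+ replicate 3 the interaction was 1.06 for *Cidea* (adjusted p = 0.833) and 2.71 for *Ucp1* (SE 19.39, adjusted p = 0.987). *Ucp1* was at 11.34 without SD *Mof*+/- replicate 2 and 12.11 without HFD *Mof*+/+ replicate 1 (adjusted p = 0.444 and 0.661). The genotype comparisons and the diet comparisons share libraries with each other and with the interaction, and their values are given side by side only.

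The wider pathway was described with 101 genes of 5 lists: regulators of brown identity, thermogenic signals and receptors, effectors of brown fat, genes of heat production without UCP1, and beige markers. On HFD feeding of *Mof*+/+, 18 of the 83 genes tested passed, 9 higher and 9 lower, which is 21.7% against the 9.75% of all genes. With the grouping of the file headings 0 of 81 passed, where 0% of all genes did. With all 10 libraries in one fit 4 of 93 passed (4.3%, against 0.893% of all genes). Of the genes at the filter's cutoff in at least 2 libraries of each diet, 17 of 71 passed (23.9%, against 10.8% of all such genes), and *Ryr1*, with a single SD library at the cutoff, is not among them. Among signals and receptors, 4 of 19 fell and 1 rose. *Adrb3*, the beta-3 adrenergic receptor, fell from 482, 556 and 611 CPM on SD to 181 and 98.5 CPM (log2 fold change -1.85, SE 0.30, adjusted p = 0.0154). *Klb*, the co-receptor of FGF21, fell from 66.8, 67.8 and 46.1 CPM to 8.01 and 11.8 CPM (-2.48, SE 0.31, adjusted p = 0.00859). *Acvr1c*, a receptor of the TGF-beta family, fell with a log2 fold change of -1.46 (adjusted p = 0.0474).

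*Metrnl*, a secreted protein linked to browning, rose from 15.8, 13.8 and 22.6 CPM to 124 and 186 CPM (3.28, SE 0.28, adjusted p = 0.00307). Among regulators 3 of 20 fell and 0 rose: *Thra*, a thyroid hormone receptor (-1.56, adjusted p = 0.00709), *Nrip1*, a corepressor of nuclear receptors (-2.37, adjusted p = 0.0166), and *Ebf2*, a determinant of brown precursors (-1.78, adjusted p = 0.0230). *Nrip1* is known to restrain the brown programme, so the members that fell do not all act in its favour.

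Among effectors 4 of 23 rose and 1 fell. The mitochondrial glycerol-3-phosphate dehydrogenase *Gpd2* fell from 78.0, 97.0 and 90.7 CPM to 10.9 and 12.9 CPM (-2.77, SE 0.22, adjusted p = 0.00303), and the potassium channel *Kcnk3* rose (1.91, adjusted p = 0.00920). Of the genes for heat without UCP1, 3 of 11 rose, the creatine transporter *Slc6a8* (1.18, adjusted p = 0.0307), the calcium channel *Ryr1* (3.71, adjusted p = 0.0396) and the creatine synthesis enzyme *Gamt* (1.36, adjusted p = 0.0452), and 1 fell. Of the beige markers 1 of 10 rose, *Ear2* (1.78, adjusted p = 0.0447), which is also a gene of eosinophils and macrophages. Among relatives of the 8 genes, *Ucp2* rose (1.86, adjusted p = 0.0165), as did *Elovl1* (1.04, adjusted p = 0.0241, or 0.0531 with the length correction), and *Elovl6* fell (-2.35, adjusted p = 0.00829). The other 10 relatives tested did not pass.

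Markers of 8 macrophage genes summed to 863 to 1557 CPM in SD *Mof*+/+ and to 4028 and 5140 CPM in HFD *Mof*+/+, and 5 of 12 white adipocyte markers fell while 1 rose. Of the 8 endothelial markers 3 fell, and all 8 were lower at an unadjusted p under 0.05. Their part in these changes was not tested. Fewer of these genes passed with a library left out. Without SD *Mof*+/+ replicate 1, 2 or 3, 5, 10 and 16 of the 18 genes passed, where 1.63%, 5.87% and 14.9% of all genes did. Without HFD *Mof*+/+ replicate 1 or 2, calls were fewer still, for these and for all genes. *Metrnl* and *Gpd2* passed in all 5 fits that left out a library. With the length correction 11 of the 18 passed, where 7.21% of all genes did.

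**Figure D5:**
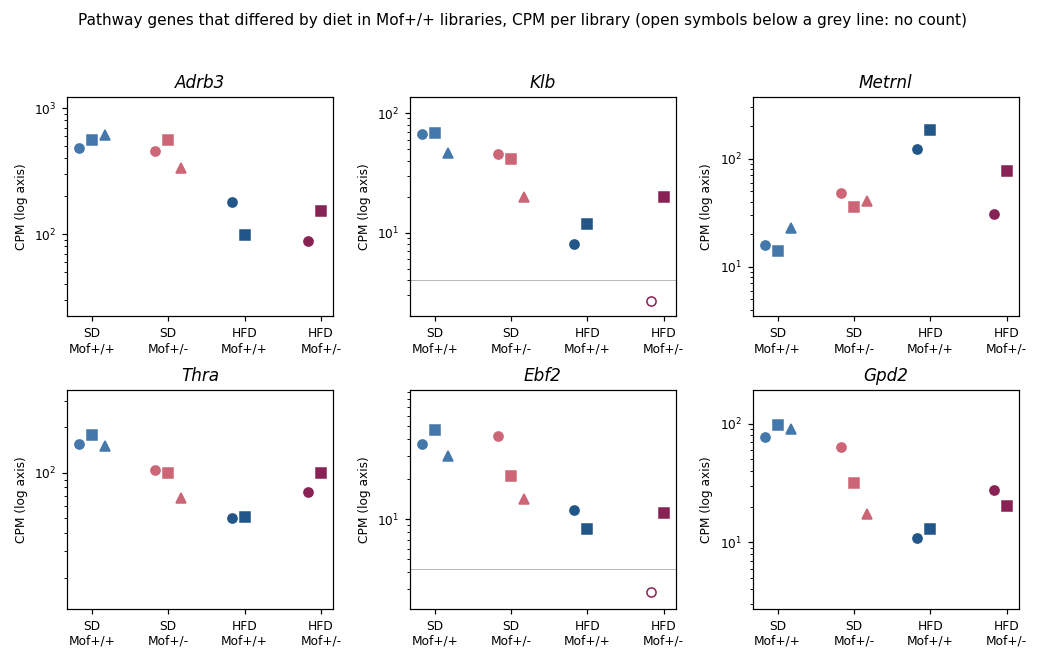
CPM (log axis, scaled for each gene) of 6 pathway genes that differed by diet in *Mof*+/+, in each library of the 4 groups, with open symbols below a grey line for libraries with no count. In *Mof*+/+, *Adrb3*, *Klb*, *Thra*, *Ebf2* and *Gpd2* were lower and *Metrnl* was higher in both HFD libraries than in all 3 SD libraries.

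In *Mof*+/- no gene of the 5 lists passed for diet in edgeR (0 of 86). Of the 52 at the filter's cutoff in at least 2 libraries of each diet, 6 had an unadjusted p under 0.05 (11.5%, against 6.62% of all such genes), and of the 52, 0 passed without HFD *Mof*+/- replicate 1 and 9 without replicate 2 (17.3%, against 6.85%). *Adrb3* was at 457, 558 and 335 CPM on SD and at 89.0 and 152 CPM on HFD. *Metrnl* was at 48.2, 35.4 and 40.3 CPM on SD and 30.6 and 77.4 CPM on HFD. Whether the diets acted differently on these genes was tested by the interaction, in which 0 of 93 passed. Of the 88 at the cutoff in at least 2 libraries outside HFD *Mof*+/-, 13 had an unadjusted p under 0.05 (14.8%, against 12.2% of all such genes), and of the 88, 0 passed without HFD *Mof*+/- replicate 1 and 25 without replicate 2, 9 higher and 16 lower (28.4%, against 20.0%).

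Between genotypes on SD, 3 of the 80 list genes tested passed (3.75%, against 5.24% of all genes), all higher in *Mof*+/-: *Metrnl* (1.61, adjusted p = 0.0328), the cytochrome c oxidase subunit *Cox5b* (1.25, adjusted p = 0.0491) and the mitochondrial ADP/ATP carrier *Slc25a4* (1.04, adjusted p = 0.0433). With the length correction 0 of them passed, where 2.34% of all genes did. None passed without SD *Mof*+/+ replicate 1, 2 or 3 or without SD *Mof*+/- replicate 2, where 0.115% to 0.512% of all genes did. *Ppargc1a*, the coactivator of mitochondrial biogenesis, was at 7.28, 12.2 and 9.29 CPM in *Mof*+/+ and 1.57, 2.69 and 0 CPM in *Mof*+/- (-2.40, SE 1.11, adjusted p = 0.215); it is named after its values were seen. *Mecom*, the nearest relative of *Prdm16*, fell from 44.3, 17.5 and 14.2 CPM to 3.15, 0.671 and 0.744 CPM (-3.67, adjusted p = 0.0394). *Cidec* rose (1.61, adjusted p = 0.0314), as did *Cox7a2* (1.47, adjusted p = 0.0491). With the length correction *Mecom* passed (adjusted p = 0.0474), and *Cidec* (0.95, adjusted p = 0.103) and *Cox7a2* (0.21, adjusted p = 0.607) did not. The other 9 relatives tested did not pass in the uncorrected fit.

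Between genotypes on HFD, 0 of 81 list genes passed in edgeR. Several of the 81, among them *Mb*, *Ckmt2*, *Atp2a1* and *Tbx15*, passed the filter only through HFD *Mof*+/-, which fixed their direction. Of the 53 at the cutoff in both libraries of each genotype, 11 had an unadjusted p under 0.05, 9 higher and 2 lower in *Mof*+/- (20.8%, against 7.73% of all such genes). Without HFD *Mof*+/- replicate 1, 29 of the 53 passed after adjustment, 21 higher and 8 lower (54.7%, against 29.6%), and without replicate 2, 29 did, 16 higher and 13 lower (54.7%, against 45.6%). Muscle markers moved with this comparison: the sum of the 20 was 92.2 to 99.6 CPM in HFD *Mof*+/+ and 81750 and 1951 CPM in HFD *Mof*+/-. Macrophage markers moved as well, with sums of 4028 and 5140 CPM in HFD *Mof*+/+ and 1164 and 1999 CPM in HFD *Mof*+/-. *Cox6a2* and *Ryr1*, among the 9, are also genes of skeletal muscle. The part of muscle and macrophage RNA in these counts was not tested. *Tbx15*, a regulator found in brown fat and in fast muscle and named after its values were seen, was at 56.5 and 18.3 CPM in HFD *Mof*+/- replicates 1 and 2, at 4.39 CPM in SD *Mof*+/+ replicate 3 and at 0 in the other 7 libraries. SD *Mof*+/+ replicate 3 is also the library with 35.4 CPM of *Cidea*.

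The genes with the most similar pattern over the 10 libraries were found by the root mean square difference of centred log2(CPM + 1), among 15896 genes, as a description without a test. The compared genes share the 10 libraries and their depths, and *Ucp1*, *Cox7a1* and *Cox8b* had their highest levels in the same 2 libraries. Closest to *Ucp1* were *Mrln* (0.373), 1110002E22Rik (0.393) and *Asb11* (0.402). Closest to *Cox7a1* were *Sgca* (0.629), *Usp13* (0.644) and *Cacna1s* (0.650), and closest to *Cox8b* were *Smtnl2* (0.675), *Cox7a1* (0.742) and *Tbx15* (0.833). *Cidea* had no gene nearer than *Wnt6* (1.13), followed by *Tbx15* (1.14) and *Cxcl14* (1.16).

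The 3 genes with a smaller spread over the libraries (standard deviation of log2(CPM + 1) from 0.851 to 1.12, against 1.98 to 2.10 for the 4 above) had closer matches. *Prdm16* was closest to *Epn2* (0.290) and *Rhot2* (0.323), *Dio2* to *Sarm1* (0.290), *Gria4* (0.315) and *Trpm3* (0.390), and *Ppara* to *Has2* (0.512), 4930525G20Rik (0.532) and Gm20544 (0.552). *Elovl3* did not pass the filter.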

How the data were processed

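Visceral WAT was profiled by mRNA-seq in 10 libraries. Reads had been aligned by the authors to GRCm38 (STAR). The deposited values are raw gene counts made with featureCounts (Subread 1.5.0-p1, per the labels), in a table for each library, not normalized. The labels also name DESeq2 1.26. Of 47937 identifiers, 47310 were matched to GENCODE M21 with the version dropped. Groups came from the labels.

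CPM were computed from the total counts on genes. The main test was the quasi-likelihood test of edgeR 4.0.16 after TMM and filterByExpr, run on the libraries compared, or on all 10 for the interaction, with Benjamini-Hochberg adjustment over all genes tested and a threshold of 0.05. DESeq2 1.42.0 was an alternative. Tools were R 4.3.3 and Python 3.11.15. The code was run on simulated counts with known changes, with less spread between libraries than here and none rich in muscle RNA. That run therefore gives no power or error rate for these comparisons. Alternatives were other scaling and filters, a replicate block, a length correction (loess, span 0.5), the grouping by file headings, and each library left out. The members and lists were chosen with earlier results of these data known. All 8 members are named, their relatives where they passed or serve as partners, and of the 5 pathway lists at most 3 genes per list and direction with the smallest adjusted p past 0.05. For each member that passed the filter over the 10 libraries, the 3 genes of most similar pattern are named, apart from 1 gene that is not reported here. Replicate numbers did not pair the samples.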

Additional observations from a re-analysis of the deposited data

Results flagged for a closer look

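*Prdm16* differed between the genotypes in opposite directions on the 2 diets. All 3 SD *Mof*+/- libraries lay below all 3 SD *Mof*+/+ libraries, and both HFD *Mof*+/- libraries lay above both HFD *Mof*+/+ libraries. Genotypes did not overlap, in either direction, for 40.3% of all genes tested on SD and 54.4% on HFD. The interaction in edgeR was 3.30 on the log2 scale, with an adjusted p of 0.223 over all genes tested (3.44 in DESeq2, adjusted p = 9.51e-05), and ranged from 3.09 to 3.50 with each library left out in turn, with adjusted p from 0.0385 to 0.885. Sex moved with genotype on SD, and muscle RNA with HFD *Mof*+/-, most of all in replicate 1. The 8 endothelial markers had a median interaction of 1.62, with 6 of them higher at an unadjusted p under 0.05 in edgeR. Their part in the *Prdm16* interaction was not tested. The interaction of *Prdm16* was 3.50 without HFD *Mof*+/- replicate 1. With the grouping of the file headings it was 2.23 (adjusted p = 0.619).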

How the results depend on the processing

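No member passed the adjusted threshold in the main edgeR tests with all libraries, and the number that passed changed with the processing. On SD, *Prdm16* alone passed with DESeq2, where 15.9% of all genes did, and with a minimum of 10 counts in every library, where 11.2% did. Between genotypes on HFD, 3 passed with DESeq2, 3 with the replicate block and 3 with the block and length correction, and 2 to 5 with each library left out. For diet in *Mof*+/+, *Prdm16* alone passed with DESeq2, where 20.0% of all genes did. For diet in *Mof*+/-, *Cox8b* and *Cox7a1* passed with DESeq2 (2.95% of all genes) and with no filter on low counts (2.1%). Both also passed with a minimum of 10 counts (0.363%), the replicate block (1.8%) and the block and length correction (1.83%). The same held with all 10 libraries in one fit (1.19%). Neither passed with an SD *Mof*+/- library left out. For the interaction, *Prdm16* and *Cox8b* passed with DESeq2 (3.08% of all genes), and *Cox8b*, *Cox7a1* and *Cidea* with no filter (1.62%). Deviations of same-numbered libraries correlated from -0.043 to 0.032, so the numbers were not taken to pair the samples. The cause of these changes was not tested.

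Directions turned as follows. *Cox8b* on SD was at -0.88 with the length correction and -0.53 with the block and length correction. *Cox5b* and *Cox7a2* on SD were at -0.18 and -0.35 with the headings' grouping. *Cidea* for diet in *Mof*+/+ was at 3.77 with the replicate block, 3.15 with the block and length correction, 2.98 with the headings' grouping and -1.44 to 3.56 with a library left out. *Cox8b* for diet in *Mof*+/+ was at -0.49 with the length correction and -0.00 to 1.36 with a library left out. *Ppara* was at -0.88 for diet in *Mof*+/- and -1.23 in the interaction with the headings' grouping, and *Cidea* in the interaction was at -0.82. With a library left out, *Ppara* ranged from -6.02 to 6.88 between genotypes on HFD, -6.41 to 1.33 for diet in *Mof*+/- and -4.68 to 8.26 in the interaction. The log2 ratios on SD ranged from -0.05 to 1.11 for *Cox7a1* over *Cox7a2* and from -0.26 to 1.03 for *Cox8b* over *Cox8a*.

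Over all genes, 727 were called on SD, against 2211 with DESeq2, 1840 with no filter, 1235 with a minimum of 10 counts, 428 with the replicate block, 325 with the length correction, 64 with both, 194 with all 10 libraries in one fit and 0 with the headings' grouping. For diet in *Mof*+/+ 1457 were called, against 2990 with DESeq2, 142 with all 10 libraries and 0 with the headings' grouping. Between genotypes on HFD 0 were called, against 209 with DESeq2, 200 with the replicate block and 173 with the block and length correction. For diet in *Mof*+/- 0 were called, against 402 with DESeq2, 429 with no filter, 26 with a minimum of 10 counts, 245 with the replicate block and 189 with all 10 libraries. For the interaction 14 were called, against 490 with DESeq2, 380 with no filter, 38 with a minimum of 10 counts and 0 with the headings' grouping. With a library left out, the counts ranged from 17 to 1026 on SD, 92 to 7551 between genotypes on HFD, 64 to 2230 for diet in *Mof*+/+, 0 to 2122 for diet in *Mof*+/- and 4 to 3163 for the interaction. Of the list genes, DESeq2 called 13 on SD (16.2%, against 15.9% of all genes) and 27 for diet in *Mof*+/+ (32.5%, against 20.0%). It called 9 between genotypes on HFD (11.1%, against 1.48%), 10 for diet in *Mof*+/- (11.6%, against 2.95%) and 7 for the interaction (7.53%, against 3.08%). In the comparisons with HFD *Mof*+/-, some list genes passed the filter only through that group. Where a group was left with 1 library, that library was assumed to vary like the other groups. At 1044355 counts, levels under 2.87 CPM could not be seen in HFD *Mof*+/- replicate 1.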
